A study of Mus musculus with 8 samples.

Results

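The heat shock proteins and their cochaperones were followed in retinal pigment epithelium (RPE) of mice that lack *Bbs8*, the gene of a subunit of the BBSome, a complex that carries cargo into and out of the primary cilium. The members were taken by gene symbol and comprised the HSP90, HSP70, HSP110 and small heat shock proteins, the mitochondrial chaperonin, *Hsf1* and *Hsf2*, the BAG cochaperones and the DNAJA, DNAJB and DNAJC proteins. The symbols named 79 genes, and 68 of these reached 1 CPM (counts scaled to the total of the library) in at least 4 of the 8 libraries and were tested, among 12889 genes tested of 31053 counted. Of the 11 members below this filter, 8 had no count in any library (*Hspb7*, *Hspb9*, *Hspa1l*, *Dnajb7*, *Dnajb8*, *Dnajb13*, *Dnajc5g* and *Dnajc22*), and *Hspb3*, *Dnajb3* and *Dnajc5b* had a few.

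RNA came from untreated C57/Bl6 mice at postnatal day 29 (P29), 4 Bbs8-/- animals and 4 Bbs8+/+ littermates, with 1 library from each animal as a biological replicate. The knockout is present in every tissue, so photoreceptors, the neighbours of the RPE, also lacked the gene. The labels call the material RPE cells, whereas the study's methods describe RPE sheets peeled from trypsin-treated eyecups for cell isolation and whole eyecups without cornea, lens and retina for RNA. The sex of the animals is not given. Reads were taken from the 3′ ends of transcripts (QuantSeq), so a count reports a transcript end and was not divided by length. Genotypes are compared for 1 gene at a time. Levels of different genes are summed, ranked or set side by side only as a description.

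Chaperones bind unfolded stretches of other proteins and release them as ATP is spent. HSP70 proteins do so in the cytosol, in mitochondria and, as BiP (*Hspa5*), in the endoplasmic reticulum (ER). J-domain proteins bring clients to HSP70 and trigger its ATPase, and HSP110 and BAG proteins exchange its nucleotide so that the client is released. HSP90 acts later, on kinases, receptors and other clients that are nearly folded. Heat shock factor 1 (HSF1) drives the cytosolic heat shock genes, and the unfolded protein response drives those of the ER. The RPE renews membranes, secretes proteins and digests the shed outer segments of photoreceptors throughout life.

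Counts on genes ranged from 2495094 to 3093428 in the Bbs8+/+ libraries and from 2389835 to 2736289 in the Bbs8-/- libraries. The floor was taken as 3 counts, or 0.970 to 1.26 CPM by library size alone, without TMM factors (counting error only, since the reads carry no molecular identifiers). The knocked-out gene, annotated as *Ttc8* (ENSMUSG00000021013), had 105, 142, 144 and 116 counts in Bbs8+/+ and 15, 5, 14 and 15 counts in Bbs8-/- libraries (log2 fold change −3.34, SE 0.294, adjusted p = 2.48e-11, by the quasi-likelihood test of edgeR). RPE markers were abundant in all libraries (16 genes, summed level 42146 to 43309 CPM in Bbs8+/+ and 50877 to 54765 CPM in Bbs8-/-, 5 up-regulated and 3 down-regulated, 8 higher and 8 lower, median log2 fold change 0.01). *Ttr* alone, a transport protein gene, went from 20970.3 ± 541 to 31805 ± 1403 CPM (SD, n = 4), which is more than the difference between the mean sums. Other cells were present too: 18 photoreceptor markers summed to 64898 to 69308 CPM in Bbs8+/+ and 27416 to 28139 CPM in Bbs8-/- libraries (17 down-regulated), 19 tested lens markers to 3771 to 4007 and 641 to 719 CPM (17 down-regulated), and 6 tested erythrocyte markers to 5163 to 5729 and 1989 to 2222 CPM (5 down-regulated). Reactive and Müller glia markers mostly moved the other way (12 genes, 7421 to 8217 and 9511 to 10077 CPM, 6 up-regulated, 10 higher and 2 lower). The most abundant of them, *Apoe*, went from 4117 ± 366 to 4865 ± 192 CPM (SD, n = 4), and *Rlbp1* is in the RPE list as well. Of 11 listed ocular surface markers 6 were tested, with summed levels of 44.6 to 64.1 and 115 to 149 CPM (4 up-regulated). Most of the Bbs8+/+ sum was *Perp*, which was not called (48.7 ± 8.58 and 61.1 ± 8.81 CPM, SD, n = 4). Below the filter, *Krt12*, *Pkp1* and *Dsg1a* had no count in any library. *Trp63* had a few counts only in Bbs8+/+ and *Krt17* only in Bbs8-/- libraries. Among the 4 up-regulated ocular surface markers, *Krt5*, *Krt14* and *Krt15* had at most 0.372 CPM in any Bbs8+/+ library. They passed the filter only through the Bbs8-/- libraries, so the filter fixed their direction. Of the other marker calls, *Gfap* (glia) had 0.339, 0, 2.46 and 1.49 CPM in Bbs8+/+ libraries and needed the Bbs8-/- libraries to pass. *Lgsn* (lens) had 1.65, 0, 0 and 0 CPM in Bbs8-/- libraries and needed the Bbs8+/+ libraries. Markers of inner retinal neurons (14 tested, 1 up-regulated and 1 down-regulated), microglia (8 tested, none called), fibroblasts and endothelium (10 tested, 2 down-regulated) and muscle and mural cells (6 tested, none called) had overlapping summed levels. In bulk RNA, fewer cells of a type and less RNA per cell cannot be told apart, and this holds for every difference given here. The part of these cell mixtures in the chaperone results was not tested.

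Of the 68 members, 2 passed the test (adjusted p under 0.05) as up-regulated in the knockout and 8 as down-regulated. These 14.7% stand beside 12.3% of all genes tested (5.46% up-regulated and 6.80% down-regulated), a similar share. The up-regulated members were *Hspa5* and *Dnajb9*, both of the ER. The down-regulated members were *Hsp90aa1*, *Hspa4l*, *Bag6*, *Dnajc2*, *Dnajc4*, *Dnajc5*, *Dnajc8* and *Dnajc9*, which work in the cytosol, the nucleus, on synaptic vesicles or in mitochondria. Whether called or not, 46 members were lower and 22 higher in the Bbs8-/- libraries, with a median log2 fold change of −0.13 against 0.02 over all genes tested, and the members ranged from −1.01 (*Bag2*) to 0.89 (*Dnajb9*). With scaling by library size alone, without TMM factors, both medians were higher, at −0.04 for the members and 0.11 for all genes, with 40 members lower and 28 higher. The summed level of the members was 7564 ± 312 CPM (SD, n = 4) in Bbs8+/+ and 6613 ± 103 CPM (SD, n = 4) in Bbs8-/- libraries. The largest single part of this difference was *Hsp90aa1* (1731 ± 194 and 1167 ± 46.4 CPM). The sum of the HSP70 and HSP110 class was not lower (1548 ± 27.1 and 1590 ± 30.2 CPM). With the same TMM scaling, the sum of all genes tested was also lower in the knockout, at 1031460 and 969610 CPM. None of the 10 called members shares exon bases with another counted gene in the annotation. Other named members do: *Hspa1a*, *Hspa12a*, *Hspa14*, *Hspb2*, *Hspb6*, *Hspd1*, *Hspe1*, *Bag4*, *Dnaja1*, *Dnaja3*, *Dnaja4*, *Dnajb6*, *Dnajc1*, *Dnajc19* and *Dnajc30*. Some of their reads may come from the overlapping gene.

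All 4 libraries of one genotype lay on one side of all 4 of the other for 14 members (20.6%, against 16.1% of all genes tested, 7.42% with Bbs8-/- above and 8.64% with Bbs8-/- below). These were the 10 called members, *Dnajc3*, which was higher in every Bbs8-/- library, and *Hspa1a*, *Dnajb2* and *Dnajc28*, which were lower in every one. The spread between libraries of a genotype, as a biological coefficient of variation, had a median of 0.181 over the members and 0.240 over all genes tested, and the members had a median level of 36.0 CPM against 18.9 CPM. The median standard error of a log2 fold change was 0.206 for the members and 0.2796 for all genes. The plot of the fold changes by class shows that the widest errors belonged to members with few counts, such as *Hspa12b*, *Hspa2*, *Dnajc24* and *Bag2*.

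**Figure D1:**
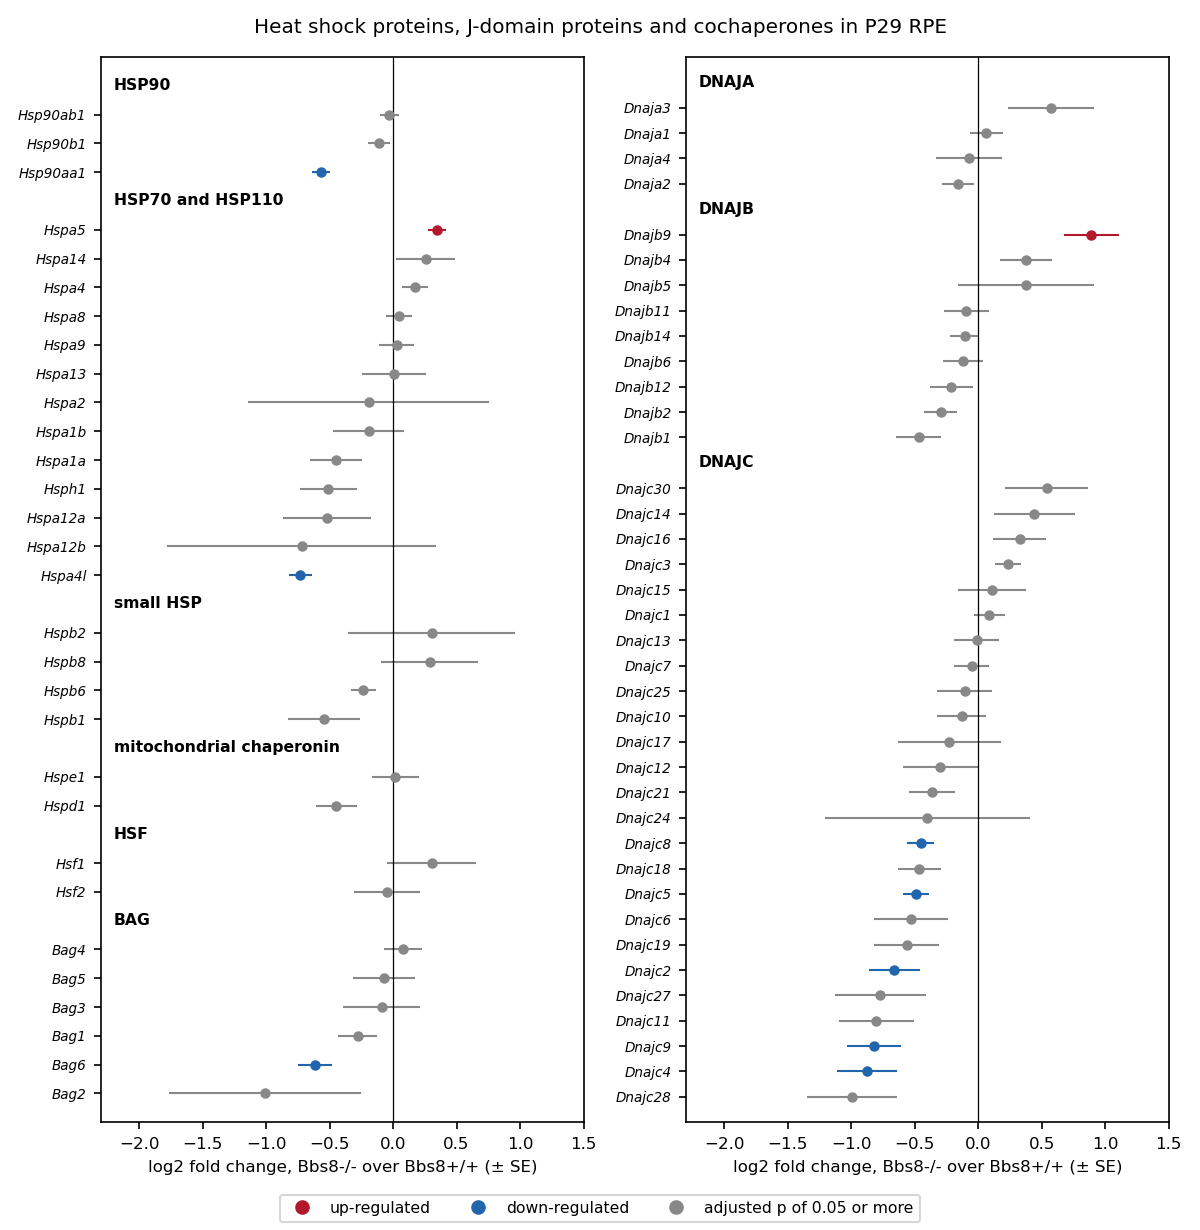
Log2 fold change of each of the 68 tested members, Bbs8-/- over Bbs8+/+, by class, with the standard error as a horizontal bar (4 libraries per genotype). The 2 up-regulated members are red, the 8 down-regulated ones blue, and members with an adjusted p of 0.05 or more grey. Most DNAJC members lie to the left of 0.

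Among the cytosolic HSP90 genes, the inducible one fell and the constitutive one did not pass the test. *Hsp90aa1* (ENSMUSG00000021270; GRCm38 chromosome 12, 110690605 to 110702728, reverse strand) encodes HSP90α and responds to heat shock. It had 1978, 1612, 1545 and 1788 CPM in Bbs8+/+ and 1222, 1163, 1109 and 1175 CPM in Bbs8-/- libraries. The Bbs8+/+ libraries lay well above the Bbs8-/- libraries, with no overlap, and the mean dropped from 1731 ± 194 to 1167 ± 46.4 CPM (SD, n = 4; log2 fold change −0.57, SE 0.0698, adjusted p = 6.97e-08). Its log2 fold change stayed between −0.63 and −0.48 over all alternative settings and with each library left out. *Hsp90ab1*, which encodes the constitutive HSP90β, had 984, 794, 784 and 885 CPM in Bbs8+/+ and 844, 900.4, 819.7 and 811 CPM in Bbs8-/- libraries. All Bbs8-/- libraries lay within the Bbs8+/+ range, and its log2 fold change was −0.03, SE 0.0760, adjusted p = 0.869, with a 95% confidence interval of −0.18 to 0.12. *Hsp90b1*, the HSP90 of the ER (GRP94), had 365, 347, 374 and 423 CPM in Bbs8+/+ and 331, 373, 357 and 334 CPM in Bbs8-/- libraries and also overlapped (log2 fold change −0.11, SE 0.0870, adjusted p = 0.477, 95% confidence interval −0.29 to 0.06).

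The ratio of *Hsp90aa1* to *Hsp90ab1* counts within a library does not depend on how libraries are scaled to each other. It was 2.01, 2.03, 1.97 and 2.02 in Bbs8+/+ and 1.45, 1.29, 1.35 and 1.45 in Bbs8-/- libraries. The ratio was thus almost the same in all 4 Bbs8+/+ animals and lower in every Bbs8-/- animal, by a mean difference of −0.54 on the log2 scale. This pair and the 2 pairs below were chosen after their values were seen, and the ratios are given as a description with no test.

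The HSP70 and HSP110 class held 13 tested members, of which 1 rose (*Hspa5*, described with the ER below) and 1 fell, with a median log2 fold change of −0.19. In this class 15.4% were called, beside 12.3% of all genes tested. The gene that fell was *Hspa4l* (ENSMUSG00000025757; chromosome 3, 40744495 to 40796103, forward strand), an HSP110 protein that serves HSP70 as a nucleotide exchange factor. It had 308, 319, 335 and 299 CPM in Bbs8+/+ and 197, 180.2, 184 and 199 CPM in Bbs8-/- libraries. The 4 Bbs8-/- libraries all lay lower, without overlap, and the mean went from 315 ± 15.2 to 190.1 ± 9.43 CPM (SD, n = 4; log2 fold change −0.73, SE 0.0926, adjusted p = 1.44e-07). Its close relative *Hspa4* had 169, 175, 161 and 182 CPM in Bbs8+/+ and 222, 189, 179 and 183 CPM in Bbs8-/- libraries. The lowest Bbs8-/- library lay within the Bbs8+/+ range and the others above it (log2 fold change 0.17, SE 0.103, adjusted p = 0.339). The within-library ratio of *Hspa4l* to *Hspa4* counts was 1.83, 1.83, 2.08 and 1.64 in Bbs8+/+ and 0.891, 0.953, 1.03 and 1.09 in Bbs8-/- libraries, a mean difference of −0.90 on the log2 scale. *Hsph1*, the heat-inducible HSP110, had 32.6, 28.8, 37.7 and 43.2 CPM in Bbs8+/+ and 34.1, 23.0, 20.4 and 22.4 CPM in Bbs8-/- libraries. Replicate 1 was the only Bbs8-/- library within the Bbs8+/+ range, and the log2 fold change was −0.51, SE 0.222, adjusted p = 0.146. Without that library it was −0.69 (adjusted p = 0.0460). Over all single libraries left out, *Hsph1* ranged from −0.69 to −0.41, with adjusted p up to 0.382 over these and the alternative settings.

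**Figure D2:**
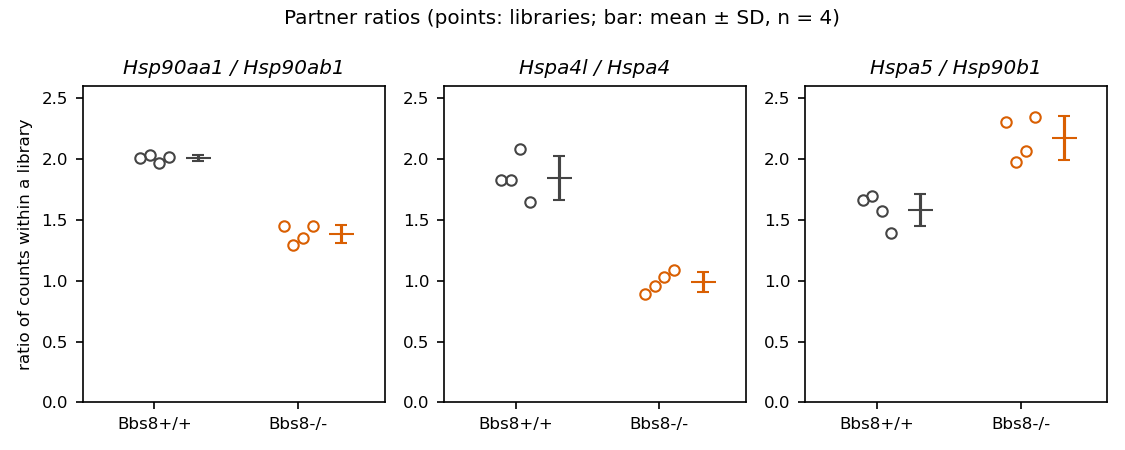
Ratio of the counts of a member to those of a related member within each library, for *Hsp90aa1* over *Hsp90ab1*, *Hspa4l* over *Hspa4* and *Hspa5* over *Hsp90b1*. Circles are libraries and the bars to their right the mean and SD (n = 4 per genotype). The genotypes do not overlap in any of the 3 panels, with Bbs8-/- lower in the first 2 and higher in the last.

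*Hspa8*, the constitutive cytosolic HSP70, had 209, 210.0, 213 and 179 CPM in Bbs8+/+ and 192, 234, 206 and 205 CPM in Bbs8-/- libraries. The genotypes overlapped, with a log2 fold change of 0.05, SE 0.101, adjusted p = 0.849 and a 95% confidence interval of −0.16 to 0.25. *Hspa1a*, the stress-inducible HSP70, had 36.3, 41.5, 32.4 and 48.4 CPM in Bbs8+/+ and 30.4, 23.3, 30.9 and 31.5 CPM in Bbs8-/- libraries. Its Bbs8-/- libraries were all lower, yet close to the Bbs8+/+ range (log2 fold change −0.45, SE 0.204, adjusted p = 0.165). *Hspa1b* had 10.5, 29.1, 29.1 and 23.8 CPM in Bbs8+/+ and 15.2, 22.3, 18.04 and 24.9 CPM in Bbs8-/- libraries and overlapped (log2 fold change −0.19, SE 0.279, adjusted p = 0.755). *Hspa1a* and *Hspa1b* are nearly identical in sequence, so counts of uniquely mapped reads of either are uncertain, and *Hspa8*, the HSP90 genes and *Hspe1* have processed copies in the genome that can take reads from them in the same way. *Hspa9*, the mitochondrial HSP70, was at 98.2 ± 13.1 CPM (SD, n = 4) in Bbs8+/+ and 100.1 ± 17.1 CPM (SD, n = 4) in Bbs8-/- libraries (log2 fold change 0.03, SE 0.139, adjusted p = 0.941). The atypical *Hspa12a* and *Hspa12b* had log2 fold changes of −0.52, SE 0.345, adjusted p = 0.393 and −0.72, SE 1.06, adjusted p = 0.759, the latter with at most 3.28 CPM in any library.

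In the ER, the central chaperone and 1 of its J-domain partners rose. *Hspa5* (ENSMUSG00000026864; chromosome 2, 34771970 to 34777547, forward strand) encodes BiP, which folds secretory proteins and holds the sensors of the unfolded protein response inactive. It had 608, 588, 587 and 590.5 CPM in Bbs8+/+ and 762, 737, 737 and 783 CPM in Bbs8-/- libraries. The 2 groups were narrow and clearly apart, at 594 ± 9.76 and 755 ± 22.6 CPM (SD, n = 4; log2 fold change 0.35, SE 0.0722, adjusted p = 6.24e-04). *Dnajb9* (ENSMUSG00000014905; chromosome 12, 44205559 to 44210326, reverse strand) encodes ERdj4, which brings misfolded proteins to BiP and restrains the sensor IRE1. It had 17.0, 31.8, 21.3 and 20.8 CPM in Bbs8+/+ and 37.4, 42.3, 39.7 and 48.7 CPM in Bbs8-/- libraries. The highest Bbs8+/+ library, replicate 2, lay below the lowest Bbs8-/- library, and the mean rose from 22.7 ± 6.34 to 42.0 ± 4.86 CPM (SD, n = 4; log2 fold change 0.89, SE 0.217, adjusted p = 0.00376). *Dnajc3*, or P58IPK, another BiP partner, had 158, 173, 172 and 147 CPM in Bbs8+/+ and 179, 199.9, 202 and 182 CPM in Bbs8-/- libraries. All Bbs8-/- libraries were higher, by a log2 fold change of 0.23, SE 0.103, adjusted p = 0.151, and only scaling by library size alone took it past the threshold (0.32, adjusted p = 0.0318).

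*Hspa5* and *Hsp90b1* are usually regarded as a pair of ER stress genes, and here the ratio of *Hspa5* to *Hsp90b1* counts within a library was 1.67, 1.69, 1.57 and 1.39 in Bbs8+/+ and 2.30, 1.98, 2.07 and 2.35 in Bbs8-/- libraries, a mean difference of 0.46 on the log2 scale. Of the 14 tested ER members, 2 rose, none fell, with 7 higher, 7 lower and a median log2 fold change of −0.04 (0.05 with scaling by library size alone). Called were thus 14.3%, beside 12.3% of all genes tested. The summed level of these ER members was 1739 to 1783 CPM in Bbs8+/+ and 1885 to 1927 CPM in Bbs8-/- libraries. The mean sums were 1756 ± 20.3 and 1908 ± 20.5 CPM (SD, n = 4). *Hspa5* alone, at 594 ± 9.76 and 755 ± 22.6 CPM, differed by more than these mean sums did. The other ER J-domain members did not pass the test. Among them *Dnajb14*, at the ER membrane, had a log2 fold change of −0.11, SE 0.113, adjusted p = 0.635, *Dnajc1* of 0.09, SE 0.119, adjusted p = 0.739, and *Dnajc18* of −0.47, SE 0.168, adjusted p = 0.0645. *Dnajc18* passed the threshold without Bbs8+/+ replicate 2 (−0.56, adjusted p = 0.0421) and with no filter on low counts (−0.47, adjusted p = 0.0305), while without Bbs8+/+ replicate 1 it was at −0.28 (adjusted p = 0.334).

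The promoters of these ER genes are shown because several of them carry the same element. The 250 bases before the annotated start are given 5′ to 3′ from RefSeq on GRCm38.p6, with the fixed letters of the ER stress response element in capitals. The element searched was CCAAT and CCACG separated by 9 bases, on both strands of windows of 250 bases before to 50 after the start, a motif chosen after the values of the ER members were seen.
Hspa5, chr2:34771840-34772089, forward strand: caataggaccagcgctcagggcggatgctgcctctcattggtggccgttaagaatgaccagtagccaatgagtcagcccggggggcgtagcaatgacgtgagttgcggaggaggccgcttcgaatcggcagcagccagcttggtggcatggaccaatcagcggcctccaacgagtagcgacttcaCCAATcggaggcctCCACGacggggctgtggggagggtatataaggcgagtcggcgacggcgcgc
Hsp90b1, chr10:86705445-86705694, reverse strand: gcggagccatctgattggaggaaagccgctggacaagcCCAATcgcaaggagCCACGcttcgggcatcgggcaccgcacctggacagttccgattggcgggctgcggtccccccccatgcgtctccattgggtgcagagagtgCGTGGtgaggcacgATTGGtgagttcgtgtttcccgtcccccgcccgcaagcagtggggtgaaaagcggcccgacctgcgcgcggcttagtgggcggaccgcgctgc
Dnajc3, chr14:118937682-118937931, forward strand: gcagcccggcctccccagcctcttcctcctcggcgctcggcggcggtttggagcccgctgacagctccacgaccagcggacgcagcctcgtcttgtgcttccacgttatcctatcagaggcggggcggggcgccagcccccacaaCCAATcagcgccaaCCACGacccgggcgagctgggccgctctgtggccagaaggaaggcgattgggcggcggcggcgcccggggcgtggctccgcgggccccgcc
Dnajb9, chr12:44210069-44210318, reverse strand: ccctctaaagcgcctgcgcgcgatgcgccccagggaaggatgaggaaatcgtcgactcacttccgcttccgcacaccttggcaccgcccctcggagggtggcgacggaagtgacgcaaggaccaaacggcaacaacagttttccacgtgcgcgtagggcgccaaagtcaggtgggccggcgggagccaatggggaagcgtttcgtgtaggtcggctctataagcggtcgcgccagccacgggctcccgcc
*Hspa5* holds 1 match that begins 65 bases before its start. *Hsp90b1* holds 2, beginning 212 and 107 bases before the start, the second on the opposite strand. *Dnajc3* holds 1, beginning 105 bases before the start, and *Dnajb9*, which had the largest rise of the members, holds no match to the element with this spacing in its window, although both blocks occur there. Over all 32851 RefSeq promoters 0.119% hold the motif, and among the 54 tested members found in the promoter table these 3 genes do. A match describes the sequence and does not show that a factor binds there.

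The ER genes outside the members (21 folding enzymes, degradation components and unfolded protein response factors, all tested) held 3 up-regulated and 2 down-regulated genes, with 15 higher, 6 lower and a median log2 fold change of 0.19. *Pdia6*, a protein disulfide isomerase, rose, with a log2 fold change of 0.52, SE 0.112, adjusted p = 9.88e-04. *Xbp1*, the transcription factor activated by IRE1, rose, with a log2 fold change of 0.74, SE 0.193, adjusted p = 0.00710, and *Manf*, a secreted ER stress protein, did so as well, with a log2 fold change of 0.60, SE 0.180, adjusted p = 0.0214. *Atf4*, the factor of the PERK branch, fell, with a log2 fold change of −0.29, SE 0.0947, adjusted p = 0.0379, and so did *Pdia4*, another disulfide isomerase (−0.46, SE 0.153, adjusted p = 0.0446). Genes of this group thus moved in both directions.

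HSF1 targets among the members, taken from general knowledge, were 13 genes, of which 2 fell (*Hsp90aa1* and *Hspa4l*), none rose, and 10 were lower, with a median log2 fold change of −0.45. The share called was 15.4%, beside 12.3% of all genes tested. This list and the other lists were written with earlier results of these data known, and its median is not independent evidence of a direction. Over the alternative settings and with each library left out the median stayed between −0.49 and −0.34. The members that did not pass were *Hspa1a*, *Hspa1b*, *Hspa8*, *Hsph1* and *Hsp90ab1* above, together with *Dnajb1* (−0.47, SE 0.176, adjusted p = 0.0785), *Hspd1* (−0.45, SE 0.162, adjusted p = 0.0653), *Hspb1* (−0.54, SE 0.286, adjusted p = 0.253), *Hspe1* (0.02, SE 0.185, adjusted p = 0.975), *Dnaja1* (0.06, SE 0.128, adjusted p = 0.831) and *Bag3* (−0.09, SE 0.302, adjusted p = 0.907). *Dnajb1*, the heat-inducible J-domain partner of HSP70, had 57.3, 68.0, 42.2 and 57.3 CPM in Bbs8+/+ and 42.8, 42.7, 40.5 and 36.8 CPM in Bbs8-/- libraries. Its 4 Bbs8-/- libraries lay close to the lowest Bbs8+/+ library, replicate 3, without which the log2 fold change was −0.59 (adjusted p = 0.0312). Over all single libraries left out, *Dnajb1* ranged from −0.59 to −0.37, with adjusted p up to 0.276 over these and the alternative settings. The factor itself, *Hsf1*, had 5.43, 11.96, 12.7 and 16.0 CPM in Bbs8+/+ and 8.23, 14.4, 20.4 and 13.7 CPM in Bbs8-/- libraries, a wide spread in both genotypes (log2 fold change 0.30, SE 0.348, adjusted p = 0.673). *Hsf2* had 27.5, 16.4, 22.1 and 20.5 CPM in Bbs8+/+ and 14.4, 19.0, 27.3 and 23.1 CPM in Bbs8-/- libraries and overlapped as well (log2 fold change −0.05, SE 0.259, adjusted p = 0.949). Of 12 HSF1 targets outside the members, 3 fell, none rose, and the median was −0.20. *Cryab*, a small heat shock protein that is also a lens marker, fell (−0.87, SE 0.1099, adjusted p = 1.32e-07), as did *Fkbp4* and *Stip1*, described below. The lens markers fell in the same libraries, and their part in the value of *Cryab* was not tested.

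Immediate early genes, which respond within minutes to handling and other stimuli, were counted as well. Of 19 tested, 7 rose and none fell (15 higher and 4 lower, median log2 fold change 0.34). The 7 are 36.8% of the list, beside 12.3% called and 5.46% up-regulated of all genes tested. The summed level of the list was 1719 to 1884 CPM in Bbs8+/+ and 2533 to 2710 CPM in Bbs8-/- libraries. *Fos* (1.01, SE 0.0892, adjusted p = 2.77e-11) and *Klf6* (1.23, SE 0.144, adjusted p = 2.32e-08) had the smallest adjusted p. Their part in the chaperone results was not tested.

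The heat shock element is shown on the promoter that *Hspe1* and *Hspd1* share head to head, where it occurs as overlapping matches. The element searched was a run of 3 blocks, GAA, TTC and GAA or TTC, GAA and TTC, with 2 bases between blocks, on both strands, and the block letters are in capitals.
Hspe1, chr1:55087898-55088147, forward strand: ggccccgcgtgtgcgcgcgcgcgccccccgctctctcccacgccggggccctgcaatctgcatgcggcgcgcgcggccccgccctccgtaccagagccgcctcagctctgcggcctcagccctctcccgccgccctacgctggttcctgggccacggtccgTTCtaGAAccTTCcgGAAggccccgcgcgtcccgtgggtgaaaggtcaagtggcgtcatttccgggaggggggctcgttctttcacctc
Overlapping matches begin 89 and 84 bases before the start of *Hspe1*, and the same bases lie in the *Hspd1* window on the other strand. In the RefSeq windows 0.603% of all promoters and 4 member genes (*Hspd1*, *Hspe1*, *Hsph1* and *Dnajb6*) held the motif. *Hspe1* and *Hspd1* together form the mitochondrial chaperonin, *Hspd1* as the barrel and *Hspe1* as its lid. *Hspd1* had 72.9, 71.7, 57.7 and 83.0 CPM in Bbs8+/+ and 54.3, 52.4, 40.9 and 61.6 CPM in Bbs8-/- libraries, with overlap between genotypes (log2 fold change −0.45, SE 0.162, adjusted p = 0.0653). It passed the threshold without Bbs8+/+ replicate 3 (−0.54, adjusted p = 0.0351) or without Bbs8-/- replicate 4 (−0.54, adjusted p = 0.0445). Over all single libraries left out, *Hspd1* ranged from −0.54 to −0.35, with adjusted p up to 0.233 over these and the alternative settings. *Hspe1* had 47.5, 41.1, 45.5 and 60.3 CPM in Bbs8+/+ and 50.6, 34.5, 48.9 and 62.7 CPM in Bbs8-/- libraries, with overlap throughout (log2 fold change 0.02, SE 0.185, adjusted p = 0.975, 95% confidence interval −0.36 to 0.39). Of the 2 called HSF1 targets, *Hspa4l* held no match to the element in its window, and *Hsp90aa1* is among the 14 tested members that are not in the promoter table.

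None of the 4 tested small heat shock proteins, which hold unfolding proteins in a state that can be refolded, passed the test. *Hspb6* (HSP20) had 257, 238, 255 and 241 CPM in Bbs8+/+ and 247, 188, 207 and 199.9 CPM in Bbs8-/- libraries. Apart from replicate 1 the Bbs8-/- libraries were lower (log2 fold change −0.23, SE 0.0992, adjusted p = 0.133), and without that library the value was −0.32 (adjusted p = 0.0355). Over all single libraries left out, *Hspb6* ranged from −0.32 to −0.18, with adjusted p up to 0.400 over these and the alternative settings. *Hspb1* (HSP27) had 27.8, 16.1, 20.5 and 22.0 CPM in Bbs8+/+ and 8.23, 14.4, 16.4 and 19.95 CPM in Bbs8-/- libraries, with overlap. *Hspb8*, the partner of *Bag3* in selective autophagy, had a log2 fold change of 0.29, SE 0.383, adjusted p = 0.731 and *Hspb2* of 0.30, SE 0.659, adjusted p = 0.845, both from few counts.

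Among the BAG proteins 1 of 6 fell (16.7%, beside 12.3% called of all genes tested) and none rose. *Bag6* (ENSMUSG00000024392; chromosome 17, 35135178 to 35147322, forward strand) guides membrane proteins that have missed their target to degradation and helps to deliver tail-anchored proteins. It had 104, 133, 109 and 109 CPM in Bbs8+/+ and 65.0, 66.4, 84.2 and 80.9 CPM in Bbs8-/- libraries. All Bbs8-/- libraries were lower, and the mean went from 114 ± 12.8 to 74.1 ± 9.83 CPM (SD, n = 4; log2 fold change −0.62, SE 0.135, adjusted p = 0.00110). *Bag1*, which links HSP70 to the proteasome, had a log2 fold change of −0.28, SE 0.153, adjusted p = 0.284, *Bag4* of 0.08, SE 0.152, adjusted p = 0.828 and *Bag5* of −0.07, SE 0.243, adjusted p = 0.909. *Bag2* had the lowest value of all members, at −1.01, SE 0.757, adjusted p = 0.469, but from a mean of 4.27 CPM in Bbs8+/+ with an SD of 3.42, and its 95% confidence interval was −2.54 to 0.53.

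The 38 tested J-domain members held 1 up-regulated and 5 down-regulated genes, a share of 15.8% beside 12.3% of all genes tested. None of the 4 DNAJA members, general partners of HSP70, passed the test. *Dnaja1* and *Dnaja2* of the cytosol had log2 fold changes of 0.06, SE 0.128, adjusted p = 0.831 and −0.16, SE 0.127, adjusted p = 0.511, *Dnaja4* of −0.07, SE 0.261, adjusted p = 0.911 and the mitochondrial *Dnaja3* of 0.57, SE 0.338, adjusted p = 0.323. *Dnaja3* ranged from 9.80 to 29.2 CPM among the Bbs8-/- libraries alone, so its value is poorly determined. Of 9 DNAJB members only *Dnajb9* passed. *Dnajb2*, abundant in neurons, had 99.7, 91.9, 99.9 and 101 CPM in Bbs8+/+ and 76.5, 76.8, 81.0 and 85.1 CPM in Bbs8-/- libraries, lower in every Bbs8-/- library (log2 fold change −0.30, SE 0.128, adjusted p = 0.141). *Dnajb6*, which keeps proteins from aggregating, had a log2 fold change of −0.12, SE 0.156, adjusted p = 0.714.

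The DNAJC members, whose J domain is attached to many different targeting parts, made up 25 of the 68 members tested and held 5 of the 8 that were down-regulated. The 5 that fell are 20% of the class, beside 6.80% down-regulated and 12.3% called of all genes tested, and none rose. In all 19 were lower and 6 higher, and the median log2 fold change was −0.36. The 5 have separate functions and sites in the cell. *Dnajc5* (ENSMUSG00000000826; chromosome 2, 181520485 to 181555133, forward strand) encodes cysteine string protein α, which guards the release machinery of synaptic vesicles. It had 381, 300.4, 288 and 327 CPM in Bbs8+/+ and 224, 262, 192 and 243 CPM in Bbs8-/- libraries. Every Bbs8-/- library was lower, at 230.2 ± 30.0 against 324 ± 41.1 CPM (SD, n = 4; log2 fold change −0.49, SE 0.103, adjusted p = 6.10e-04). The photoreceptor markers, which are genes of neurons, fell in the same libraries, and their part in this value was not tested. *Dnajc8* (ENSMUSG00000054405; chromosome 4, 132535550 to 132553742, forward strand), a nuclear protein found with the splicing machinery, had 239, 192, 212 and 222 CPM in Bbs8+/+ and 148, 176, 152 and 155 CPM in Bbs8-/- libraries. It too was lower in every Bbs8-/- library (log2 fold change −0.45, SE 0.104, adjusted p = 0.00187).

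*Dnajc9* (ENSMUSG00000021811; chromosome 14, 20384638 to 20388910, reverse strand) escorts newly made histones with HSP70. It had 42.1, 51.2, 49.1 and 44.7 CPM in Bbs8+/+ and 23.4, 25.8, 38.1 and 18.6 CPM in Bbs8-/- libraries. Bbs8-/- replicate 3 lay closest to the Bbs8+/+ libraries, and the mean dropped from 46.8 ± 4.16 to 26.5 ± 8.31 CPM (SD, n = 4; log2 fold change −0.82, SE 0.210, adjusted p = 0.00566). *Dnajc4* (ENSMUSG00000024963; chromosome 19, 6987911 to 6992572, reverse strand), a mitochondrial member, had 38.3, 27.7, 28.7 and 30.2 CPM in Bbs8+/+ and 18.5, 18.7, 16.8 and 14.0 CPM in Bbs8-/- libraries. The 4 Bbs8-/- libraries were close to each other and below all Bbs8+/+ libraries (log2 fold change −0.88, SE 0.237, adjusted p = 0.00943). *Dnajc2* (ENSMUSG00000029014; chromosome 5, 21757267 to 21785251, reverse strand) binds ribosomes together with *Hspa14* and receives new chains. It had 47.5, 41.8, 43.8 and 46.5 CPM in Bbs8+/+ and 20.98, 38.4, 26.5 and 27.3 CPM in Bbs8-/- libraries. Bbs8-/- replicate 2 was just below the lowest Bbs8+/+ library (log2 fold change −0.66, SE 0.202, adjusted p = 0.0239). This was the least stable of the called members: its adjusted p was 0.0569 with scaling by library size alone (log2 fold change −0.57), 0.0659 without Bbs8+/+ replicate 4 (−0.65), and 0.0825, 0.0603 and 0.0566 without Bbs8-/- replicates 1, 3 and 4 (−0.55, −0.63 and −0.64). *Hspa14* had a log2 fold change of 0.26, SE 0.229, adjusted p = 0.565.

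**Figure D3:**
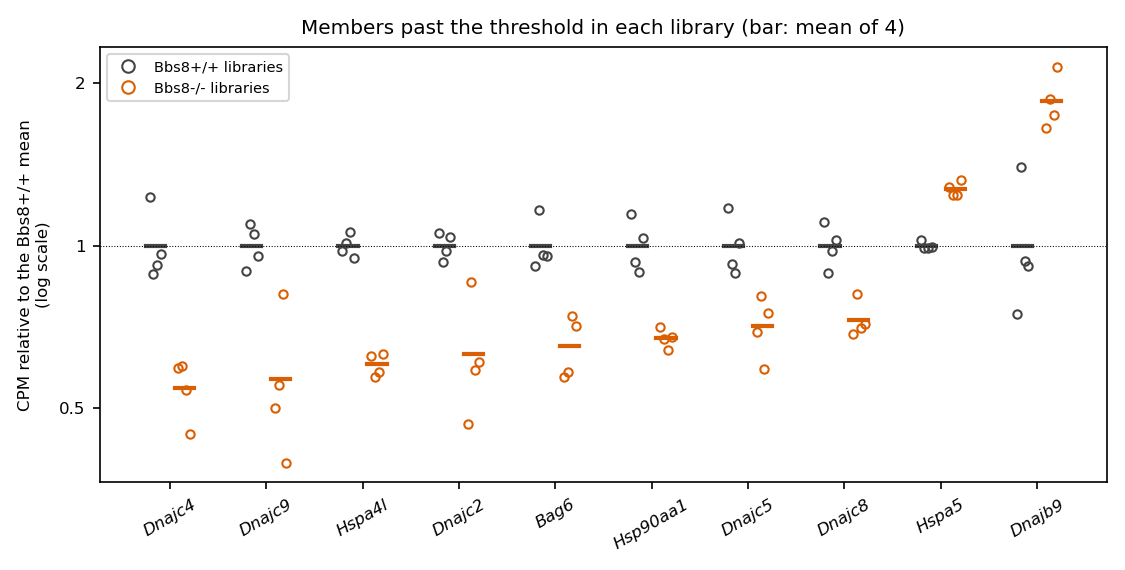
Level of each of the 10 called members in each library, as CPM divided by the mean of the Bbs8+/+ libraries on a log axis, ordered from the lowest to the highest Bbs8-/- mean. Circles are libraries and bars the mean of 4. *Hspa4l* and *Hspa5* have tight groups, while single Bbs8-/- libraries of *Dnajc2*, *Dnajc5*, *Dnajc8* and *Dnajc9* come near the Bbs8+/+ values.

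Several more DNAJC members had log2 fold changes of 0.5 or more in size and did not pass the test. *Dnajc28*, a mitochondrial member, had 17.3, 30.3, 19.7 and 16.8 CPM in Bbs8+/+ and 2.47, 16.5, 14.4 and 8.40 CPM in Bbs8-/- libraries, without overlap but with a wide spread (log2 fold change −0.99, SE 0.354, adjusted p = 0.0599). It passed the threshold with limma-voom (−1.21, adjusted p = 0.0394), with no filter on low counts (−1.001, adjusted p = 0.0235), and without Bbs8+/+ replicate 1 (−1.08, adjusted p = 0.0321), Bbs8-/- replicate 2 (−1.31, adjusted p = 0.0233) or Bbs8-/- replicate 3 (−1.18, adjusted p = 0.0499). Over all single libraries left out, *Dnajc28* ranged from −1.31 to −0.68, with adjusted p up to 0.264 over these and the alternative settings. *Dnajc11*, of the mitochondrial membrane, had 22.0, 25.8, 20.1 and 20.8 CPM in Bbs8+/+ and 8.64, 9.69, 10.8 and 21.4 CPM in Bbs8-/- libraries. Bbs8-/- replicate 4 alone lay in the Bbs8+/+ range (log2 fold change −0.80, SE 0.294, adjusted p = 0.0700), and without it the value was −1.19 (adjusted p = 0.00824). Over all single libraries left out, *Dnajc11* ranged from −1.19 to −0.66, with adjusted p up to 0.189 over these and the alternative settings. *Dnajc19*, of the mitochondrial import motor, had a log2 fold change of −0.57, SE 0.259, adjusted p = 0.169, which passed without Bbs8+/+ replicate 1 (−0.75, adjusted p = 0.0445). Over all single libraries left out, it ranged from −0.75 to −0.42, with adjusted p up to 0.419 over these and the alternative settings. *Dnajc27* had −0.77, SE 0.359, adjusted p = 0.178, *Dnajc6*, the auxilin that uncoats clathrin vesicles, had −0.53, SE 0.291, adjusted p = 0.278, and *Dnajc30* of mitochondria had 0.54, SE 0.324, adjusted p = 0.336. Grouped by site, the 10 mitochondrial members held 1 gene that fell (*Dnajc4*) and none that rose, 5 were lower and 5 higher, and the median was −0.22.

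Chaperone systems that work beside the members were counted in the same fit. Of 19 HSP90 cochaperones 3 fell and none rose, with a median log2 fold change of −0.10. These were *Fkbp4* (−0.41, SE 0.102, adjusted p = 0.00407), an immunophilin of steroid receptor complexes, *Stip1* (−0.43, SE 0.140, adjusted p = 0.0380), which hands clients from HSP70 to HSP90, and *Cdc37* (−0.38, SE 0.128, adjusted p = 0.0423), which brings kinases to HSP90. Of 13 further HSP70 cochaperones 2 fell and none rose, with a median of −0.10: *Pam16* (−0.64, SE 0.206, adjusted p = 0.0351) of the mitochondrial import motor and *Sec63* (−0.36, SE 0.122, adjusted p = 0.0467), a J-domain protein of the ER translocon that the symbol rule does not take. The cytosolic chaperonin TRiC and its feeder prefoldin had 13 genes tested of 14 listed, of which 2 fell, *Cct5* (−0.64, SE 0.133, adjusted p = 6.18e-04) and *Pfdn5* (−0.31, SE 0.0984, adjusted p = 0.0328), and none rose. There 12 of 13 genes were lower, with a median of −0.24. As with the members, the called share of each of these lists was near the 12.3% of all genes, apart from the other HSF1 targets (25.0%) and the ER genes outside the members (23.8%), which are 3 and 5 genes.

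**Figure D4:**
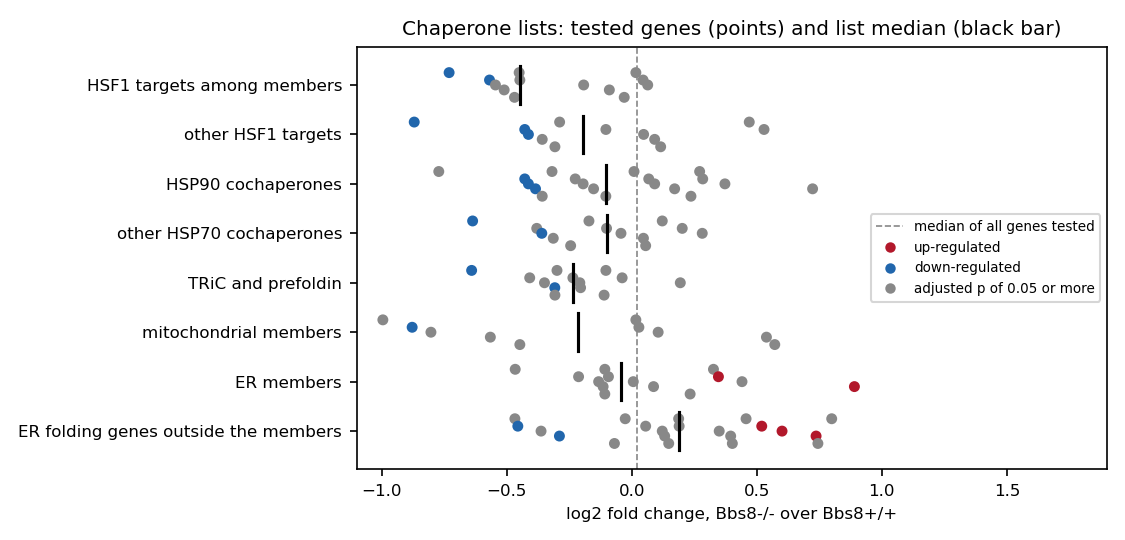
Log2 fold changes of the tested genes of 8 chaperone lists, Bbs8-/- over Bbs8+/+. Points are genes (red up-regulated, blue down-regulated, grey an adjusted p of 0.05 or more), black bars the list medians and the dashed line the median of all genes tested, 0.02. The median of the HSF1 targets among the members is the lowest at −0.45, and that of the ER folding genes outside the members the highest at 0.19.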

How the data were processed

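Counts per gene of 4 Bbs8+/+ and 4 Bbs8-/- libraries of P29 RPE, 1 animal each, were analysed. The authors trimmed the reads with BBDuk (BBMap 37.31), aligned them to mm10 with STAR 2.6.0a3 (gene models: Ensembl release 93) and used htseq-count to count them. The deposited counts are raw and list every gene by Ensembl identifier. The strand setting is not given in the sources used here, so for the 21 of 79 members that share exon bases with a gene on the opposite strand (4 on the same strand) reads could not be assigned with certainty. Rows that name no gene held 51.0% to 54.2% of the reads and were left out. Reads that align to more than 1 place are not counted, which lowers genes with near-identical copies. Symbols came from GENCODE M21 and named 30934 of 31053 identifiers.

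The filter kept genes that reached 1 CPM in 4 libraries or more, libraries were scaled by TMM (0.955 to 0.980 in Bbs8+/+ and 1.02 to 1.05 in Bbs8-/-), and genotypes were compared with the quasi-likelihood F test of edgeR 4.0.16 in R 4.3.3, two-sided, with Benjamini-Hochberg adjustment over all 12889 genes and a threshold of 0.05. The study's own filter also uses how many reads map to several places, which cannot be computed from counts. The procedure was tested on simulated data. CPM values are scaled by TMM, apart from those of the filter and the floor. Standard errors were computed from the fold change and the F statistic. Correlations between libraries of a genotype were 0.924 to 0.958. Since the labels share replicate numbers, a fit with a replicate block was an alternative. The others were DESeq2 1.42.0, limma-voom (limma 3.58.1), other scalings and filters, and each library left out.

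The members and all lists were chosen with earlier results of these data known, and the rule, the lists and the marker genes come from general knowledge. Named are the called members, the 3 most abundant of each class, members with a log2 fold change of at least 0.5 in size, the HSF1 targets, and up to 4 called genes of each list. Genes named beyond that, among them *Hspa14*, *Dnajc18*, *Dnajc1* and *Pdia4*, were chosen after their values were seen.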

Additional observations from a re-analysis of the deposited data

Results flagged for a closer look

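Of 94 groups of 4 libraries examined (each genotype of each named member), 4 held 1 library far from the other 3, against about 1 in 20 that chance gives. *Dnajb2* had 91.9 CPM in Bbs8+/+ replicate 2 and 99.7 to 100.9 CPM in the other Bbs8+/+ libraries, and without that library its log2 fold change was −0.33 (adjusted p = 0.157). *Hspa5* had 608 CPM in Bbs8+/+ replicate 1 and 587 to 590.5 CPM in the others, and without it the log2 fold change was 0.36 (adjusted p = 5.60e-05). *Hspa8* had 179 CPM in Bbs8+/+ replicate 4 and 209 to 213 CPM in the others, and without it the log2 fold change was −0.01 (adjusted p = 0.966). *Hspa1a* had 23.3 CPM in Bbs8-/- replicate 2 and 30.4 to 31.5 CPM in the others, and without it the log2 fold change was −0.36 (adjusted p = 0.347). None of the 4 libraries decided a call of these genes.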

How the results depend on the processing

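Members called were 2 up-regulated in every setting except scaling by library size alone (3), and 7 to 10 down-regulated, also with each library left out. DESeq2's Wald test called the same 10 members. The median log2 fold change of the members was −0.157 to −0.0806 with each library left out and moved to −0.0374 with scaling by library size alone, which also turned the split over all genes from 704 up-regulated and 877 down-regulated to 1008 and 654. *Ttc8* stayed between −3.49 and −3.06 with each library left out. Of 764 single-gene values, 728 kept their direction and side of the threshold, 16 passed it, 5 (all *Dnajc2*) lost it and 15 changed sign. Those that changed sign were uncalled values near 0, and the cause was not tested. Scaling by library size alone gave 0.0129 for *Dnaja4*, 0.0458 for *Hsf2* and 0.0603 for *Hsp90ab1*, and limma-voom gave −0.00245 for *Hspe1*. With each library left out, the log2 fold change ranged from −0.357 to 0.107 for *Bag3*, −0.268 to 0.0913 for *Dnaja4*, −0.196 to 0.0934 for *Hsf2*, −0.0140 to 0.0838 for *Hspa8*, −0.0798 to 0.0403 for *Hsp90ab1* and −0.126 to 0.156 for *Hspe1*.

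Replicate numbers did not pair the libraries: deviations of same-numbered libraries correlated between −0.0285 and 0.00859, and 1 of 4 matched its own number best. With the replicate block 2 members were up-regulated and 9 down-regulated, the 10 called members all kept and *Dnajc28* added (−1.13, adjusted p = 0.0218), with 650 and 827 over all genes. At these depths a member near the floor of 3 counts, such as *Bag2* or *Hspa12b*, can show only large differences.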
